A study of Mus musculus with 5 samples.

Results

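Lsd1 was mapped by chromatin immunoprecipitation and sequencing in 2 murine MG medulloblastomas, numbered 39 (replicate 1) and 41 (replicate 2), and the regions that carried an Lsd1 peak in both tumors are described here. A region was a tumor 39 peak that overlapped a tumor 41 peak by 1 bp or more, and 24627 of the 30367 peaks of tumor 39 did so. The regions were ordered by a rank, the mean of the 2 percentiles that the peak and its tumor 41 partner held within their own lists, on a scale that ends at 100 for the highest score. The series holds 5 samples, of which these are the 2 Lsd1 samples. MG tumors arise from early postnatal C57BL/6 cerebellar stem cells, sorted as Prominin1-positive and lineage-negative, that carry retroviral Gfi1 and a stabilised mutant of Myc and are transplanted into immunodeficient NSG host mice. Both tumors carry both viruses, and no tumor without them enters the comparison. Frozen tumor chromatin was precipitated with 4 µg of a rabbit polyclonal Lsd1 antibody (Abcam ab17721). The input control of the series is a pool of MGB tumors (Myc/Gfi1b), and which input served for each list was not stated in the sources used here. A tumor is a mixture of cells, so that fewer cells with Lsd1 at a site and less Lsd1 per cell cannot be told apart.

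Lsd1, encoded by Kdm1a, is a flavin-dependent demethylase that removes methyl groups from lysine residues of the histone H3 tail. It works in complexes with CoREST proteins and histone deacetylases, and sequence-specific factors bring it to DNA. It is known mainly as a corepressor, although it has been found at the promoters of many expressed genes in other cell types. Most mammalian promoters of widely expressed genes lie in CpG islands, stretches of DNA rich in the dinucleotide CG, whereas many promoters of tissue-restricted genes do not.

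The contrast between start sites with and without Lsd1 can be read in the DNA itself. The sequences below are the 200 bases upstream of a transcription start site (TSS), taken from RefSeq on build GRCm38.p6 and written 5′ to 3′ on the strand of the gene, with every CG in capitals. The first 3 belong to the highest-ranked regions with 1 protein-coding gene for which an upstream sequence free of exons lay inside the region. They are Ptms (chr6:124917947-124918146, minus strand), Ckb (chr12:111672339-111672538, minus strand) and Cic (chr7:25281979-25282178, plus strand), which encode a small nuclear acidic protein, brain creatine kinase and a transcriptional repressor.
Ptms: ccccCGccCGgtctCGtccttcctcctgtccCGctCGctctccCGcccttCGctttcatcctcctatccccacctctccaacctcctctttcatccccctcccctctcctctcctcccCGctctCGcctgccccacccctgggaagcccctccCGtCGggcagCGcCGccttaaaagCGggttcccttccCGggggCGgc
Ckb: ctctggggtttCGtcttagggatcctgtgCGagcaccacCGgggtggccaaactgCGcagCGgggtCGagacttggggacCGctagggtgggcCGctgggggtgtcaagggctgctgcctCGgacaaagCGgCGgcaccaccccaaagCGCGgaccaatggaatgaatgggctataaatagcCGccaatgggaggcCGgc
Cic: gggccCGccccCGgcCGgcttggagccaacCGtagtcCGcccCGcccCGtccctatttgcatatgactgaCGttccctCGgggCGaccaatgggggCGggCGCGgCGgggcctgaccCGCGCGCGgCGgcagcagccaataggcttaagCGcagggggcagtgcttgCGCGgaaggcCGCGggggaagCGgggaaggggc
The other 3 lacked a peak in both tumors and are the first by name, with such a sequence, of 3 classes that were nearly or wholly free of Lsd1. They are the olfactory receptor gene Olfr101 (chr17:37300485-37300684, minus strand), the defensin gene Defa20 (chr8:21509058-21509257, plus strand) and Prl2b1 of the prolactin family (chr13:27390847-27391046, minus strand).
Olfr101: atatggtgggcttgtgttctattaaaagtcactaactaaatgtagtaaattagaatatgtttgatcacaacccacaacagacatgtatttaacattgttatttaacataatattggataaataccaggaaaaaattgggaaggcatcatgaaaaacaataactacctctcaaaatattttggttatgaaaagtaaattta
Defa20: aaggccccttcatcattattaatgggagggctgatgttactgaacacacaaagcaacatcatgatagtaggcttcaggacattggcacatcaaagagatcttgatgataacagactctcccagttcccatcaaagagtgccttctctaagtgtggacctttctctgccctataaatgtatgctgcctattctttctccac
Prl2b1: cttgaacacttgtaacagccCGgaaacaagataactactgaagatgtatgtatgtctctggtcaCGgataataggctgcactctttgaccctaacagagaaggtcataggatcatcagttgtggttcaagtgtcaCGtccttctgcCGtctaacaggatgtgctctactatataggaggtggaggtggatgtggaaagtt
The occupied examples hold 16, 15 and 25 CG dinucleotides in this order, against 0, 0 and 4 in the unoccupied ones. Within 500 bp of the annotated gene start, the measure used for all genes below, the counts were 19, 68 and 49 against 5, 4 and 7. By that measure Ptms falls in the fourth decile of genes, with 15 to 26, and is not rich in CG dinucleotides. G+C makes up 70.0%, 65.0% and 74.5% of the bases in Ptms, Ckb and Cic, and 27.5%, 43.5% and 45% in Olfr101, Defa20 and Prl2b1.

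In tumor 39 the list comprised 30367 peaks (median width 1765 bp) and in tumor 41 it comprised 33213 (median width 1606 bp). They covered 69.0 Mb and 68.8 Mb of the genome. Replicate 1, which had the shorter list, was the more deeply sequenced library of the pair per the reporting summary. Of the tumor 39 peaks 81.1% had a partner in tumor 41, and 77.2% of the tumor 41 peaks had one in tumor 39. Peaks without a partner were narrow and low. Their median width was 1085 bp in tumor 39 and 1010 bp in tumor 41, against 2031 bp and 1890 bp for peaks with a partner, and their median scores were 75.6 and 76.4 against 305 and 352. The authors' score runs from 50 to 3233 in both lists. It reached exactly 3100 at 113 peaks of tumor 39 and 419 of tumor 41 and exceeded this value at 25 and 69, so that the order among the highest peaks is poorly resolved. The lists carry no read counts, and the depth behind a single peak is therefore unknown.

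The share of regions at start sites depended on their rank. Of all 24627 regions 59.1% came within 1000 bp of a TSS, 21.7% lay in introns, 15.5% were intergenic and 3.74% lay in exons away from a TSS. In the complete lists, the TSS share was 51.1% in tumor 39 and 50.8% in tumor 41 (51.0% ± 0.212, SD, n = 2). Among the highest decile of regions by rank 94.5% were at a TSS, and among the lowest decile 25.1% were. Intronic regions made up 2.31% of the highest decile and 40% of the lowest. Width followed the same order, with a median of 4133 bp in the highest decile and 1068 bp in the lowest. As a description over the 24627 regions, rank and width had a Spearman correlation of 0.77, with peak calling shared by both quantities. The percentiles of the regions in tumors 39 and 41 had one of 0.81.

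**Figure D1:**
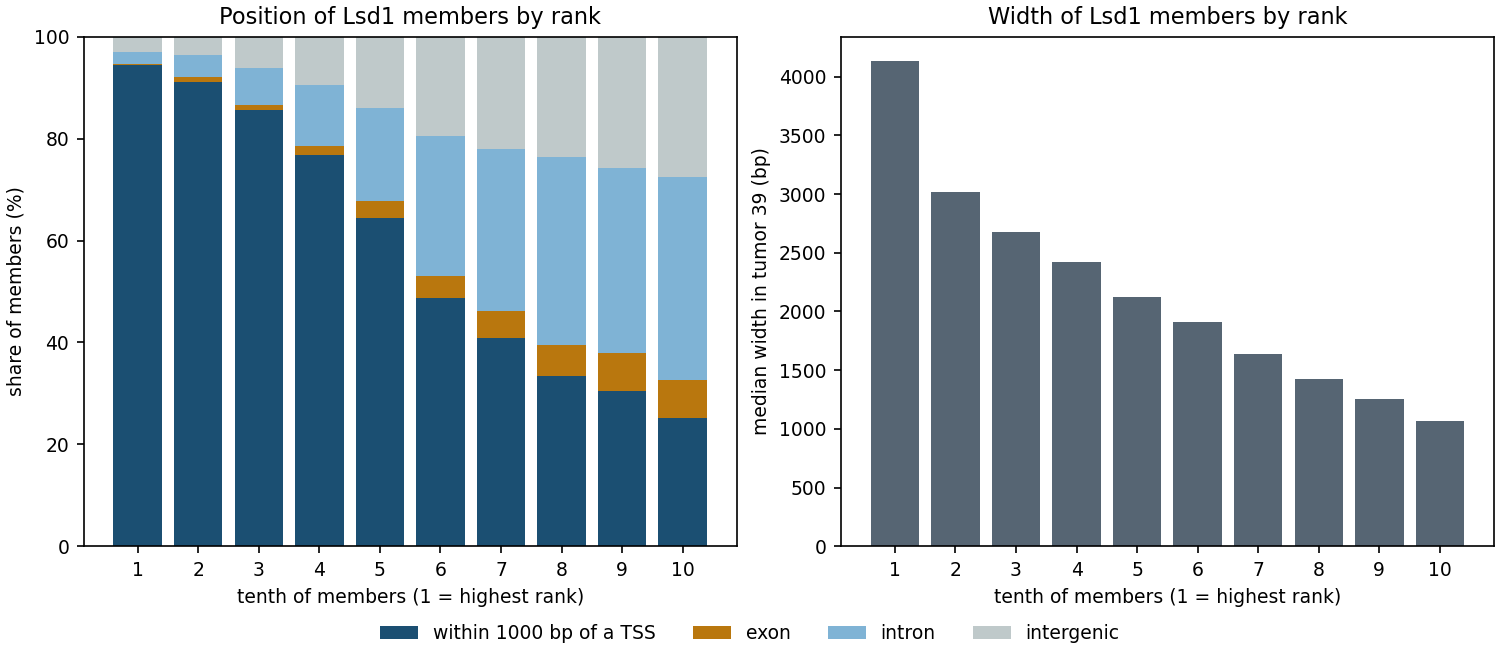
Left, share of regions (%) at a TSS, in exons, in introns and between genes for each decile of the 24627 regions by rank. Right, median width in bp of the tumor 39 peaks in the same deciles. The TSS share declines from 94.5% to 25.1% and the median width from 4133 bp to 1068 bp.

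In 123 regions the score was 3100 or more in both tumors. Of these, 115 were at a TSS, 7 were intergenic and 1 was intronic, and their widths ran from 2586 bp to 15640 bp around a median of 6749 bp. The 10 highest with a protein-coding TSS, by the order described, were those of Zfp219 with Tmem253, Hes7 with Aloxe3 and 9130213A22Rik, Ulk4, Irs2, Ptms, Ckb, Shb, Cep57 with Fam76b, Ctdsp1 and Cic. The region at Zfp219, a zinc finger gene, spanned chr14:52017428-52025052 and scored 3100 in tumor 39 and 3176 in tumor 41. The one at Hes7, an oscillating Notch effector, spanned chr11:69116274-69127067 with scores of 3233 and 3100. At Irs2, the insulin receptor substrate, the region spanned chr8:11004392-11012269 with scores of 3230 and 3100. Tumor 41 scored 3100 at each of these 10 regions but that of Zfp219, so that the order among them rests on tumor 39. Several other genes of this group of 123, picked after their values were seen, encode inducible regulators (Egr1, Jun, Jund, Ier2, Srf, Nr4a3, Klf10), ubiquitin (Ubb), glycolytic and cytoskeletal proteins of all cells (Gapdh, Pkm, Actb), or chromatin regulators (Kdm6b, Gse1, Sin3a, Brd2, Zmynd8, Phf12, Ing1, Pcgf2).

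The 5 highest regions more than 1000 bp from any TSS reached the same scores. They lay at chr5:125402123-125410660, closest to Dhx37, at chr11:69416381-69422109, closest to Kdm6b, at chr11:94156030-94166246, closest to Tob1, at chr2:30653146-30662557, in an intron of a non-coding gene and closest to Cstad, and at chr7:16293499-16302341, closest to Bbc3, which encodes the p53 effector Puma. Distances to the closest TSS of any gene were 5237 bp, 2706 bp, 20370 bp, 7351 bp and 6052 bp. Each scored 3100 in tumor 39, and in tumor 41 the first scored 3162 and the others 3100. The region closest to Kdm6b is not separate from the Kdm6b start in tumor 41, where a single peak of 15278 bp, chr11:69406851-69422128, is the partner of both. At the other end of the order, the 5 lowest regions were all intronic, in Cpeb3, App, Tdrd3, Lhpp and Acot7, with scores between 50.55 and 51.12 in tumor 39 and between 50.1 and 51.04 in tumor 41. Their ranks ran from 0.59 to 0.79, and their widths from 826 bp to 1299 bp.

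Lsd1 was found at the start of most protein-coding genes. A gene was counted as occupied when a region came within 1000 bp of one of its TSSs, and 12646 of 21938 genes were, or 57.6%. In the single lists, the share of genes with a peak this close was 58.5% in tumor 39 and 61.7% in tumor 41 (60.1% ± 2.27, SD, n = 2). A gene was counted as strongly occupied when the region belonged to the upper 20% by rank, and 5375 genes were, or 24.5%. The lowest rank inside this share was 84.1, at BC005537 (scores of 776 in tumor 39 and 1309 in tumor 41) and, next to it, Kdm2a (774 and 1316), and the first outside it was 84.1 as well, at Arrb1 (961 and 1027). A region may serve several genes, and the 12646 genes shared 10992 regions. In all, 62 gene classes were compared with these shares. Among them 18 had more than 90% of their genes occupied, 7 had all of them, 13 had fewer than 10% and 4 had none.

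Genes of the general cell machinery carried Lsd1 almost without exception. Among 11 such classes the occupied share ran from 88.5% to 100%, and the strongly occupied share from 30% to 74.7%. Lsd1 was at 81 of 83 cytosolic ribosomal protein genes in each tumor, and the 2 without it were the duplicate genes Rpl10l and Rpl39l. Of these 83 genes 74.7% were strongly occupied, led by Rpl36, with scores of 3100 in both tumors, and Rpl7, with 2662 in tumor 39 and 3100 in tumor 41. Mitochondrial ribosomal protein genes were occupied in 78 of 78 cases, led by Mrps18b and Mrpl40, but 30.8% of them were strongly occupied. The difference in strength held in each tumor's own upper 20%, which took in 83.1% and 84.3% of the cytosolic class in tumors 39 and 41 and 48.7% and 47.4% of the mitochondrial class. Splicing factor and hnRNP genes were occupied in 53 of 55 cases and strongly in 70.9%, led by Hnrnpl and Hnrnpa2b1, with Sf3b5 and Snrpn unoccupied. All 28 RNA polymerase subunit genes, all 30 Mediator genes and all 37 aminoacyl-tRNA synthetase genes were occupied.

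Classes of the respiratory chain, the proteasome and translation had few exceptions, and these could be named. Respiratory chain and ATP synthase genes were occupied in 90 of 94 cases, led by Ndufa11 and Sdhb, and those without a region were Cox6a2, Cox7b2, Cox8c and 1 of the annotated entries of Atp5o. Among 40 proteasome genes Psma8 and Psmb11, the latter a thymus subunit with a peak in tumor 39 alone, were unoccupied, and Psmb3 ranked highest. Translation factors were occupied in 64 of 68 cases, led by Eif4a1 and Eef1a1, and the exceptions were Eif2s3y, Eif3j2, Eif4e1b and Eif4ebp3. Eif2s3y and Eif4ebp3 had a peak in tumor 41 alone. Chaperonin and heat shock genes were occupied in 69 of 78 cases, led by Dnajb12 and Dnajc27, and DEAD and DEAH box helicase genes in 48 of 53, led by Ddx42 and Ddx41. Several of the unoccupied members of these classes are known from muscle, germ cells or the Y chromosome (Cox6a2, Cox7b2, Psma8, Ddx4, Eif2s3y).

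Cell cycle classes resembled them. All 42 genes of replication origins and forks were occupied, led by Pold2, a subunit of DNA polymerase delta, with scores of 3149 and 3100, and Mcm7, a subunit of the replicative helicase, with 2658 and 3100. Kinesin and mitotic checkpoint genes were occupied in 77 of 84 cases, led by Kif26b and Anapc16. Cyclin and cyclin-dependent kinase genes were occupied in 49 of 53, led by Cdk2ap2 and Cdk5. This class was defined by symbol and takes in Cdk2ap1 and Cdk2ap2, which encode proteins associated with CDK2 and not kinases. Unoccupied were Ccna1, Ccnb3, Cdk14 and Cdk15. Replication-dependent histone genes were the most strongly occupied of the 62 classes by the joint rank, with 64 of 67 genes occupied, 89.6% strongly, and a median rank of 98.8 among the occupied genes. Each tumor's own upper 20% took in 95.5% of the class in tumor 39 and 88.1% in tumor 41. For lysine demethylase genes these shares were 72.2% and 88.9%, so that the histone genes did not lead in tumor 41. Only the germ line histone genes Hist1h1t (with a peak in tumor 41 alone), Hist1h2aa and Hist1h2ba lacked a region. These genes sit in tight clusters, so that the 64 genes shared 34 regions, and they are near-identical copies among which short reads may be assigned with uncertainty.

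Chromatin regulators were occupied in all or most cases. All 38 genes of histone deacetylases and CoREST subunits carried Lsd1, led by Sin3a, with scores of 3100 in both tumors, and Sirt2, with 2275 and 3119. The CoREST genes Rcor1, Rcor2 and Rcor3 had ranks of 96.01, 96.38 and 95.35. Kdm1a itself, singled out here because it encodes the precipitated protein, had a rank of 75.82, with scores of 426 in tumor 39 and 1175 in tumor 41. All 25 Polycomb genes were occupied, 64.0% of them strongly, led by Pcgf2 and Cbx3. Of 18 lysine demethylase genes 17 were occupied, led by Kdm6b and Kdm3a, and the remaining one was the Y-linked Kdm5d, with a peak in tumor 41 alone. Lysine methyltransferase genes were occupied in 36 of 41 cases, led by Kmt2e and Nsd1, and the exceptions were Prdm6, Prdm8, Prdm12, Prdm13 and Prdm14, which are developmental regulators. Prdm6, Prdm8 and Prdm12 had a peak in tumor 41 alone. The 394 zinc finger genes named Zfp were occupied in 80.2% of cases and strongly in 23.1%, a share near the 24.5% of all genes.

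Transcription factor classes spanned nearly the whole range. At one end, 32 of 34 ETS and AP-1 genes were occupied and 67.6% strongly, led by Jun and Jund with scores of 3100 in both tumors, while Elf5 and Elk3 were not. Klf and Sp genes were occupied in 21 of 26 cases, led by Klf10 and Klf13, with Klf17, Sp5, Sp6, Sp7 and Sp8 unoccupied. Of these unoccupied genes, Elk3, Sp6, Sp7 and Sp8 had a peak in tumor 41 alone. At the other end, 3 of 39 Hox genes were occupied (Hoxd9, Hoxa7 and Hoxd1) and 0 strongly. Hoxd9 had the highest rank of them, 54.27, from scores of 157 and 459. Intermediate shares were found for nuclear receptors, with 32 of 43 and Nr4a3 and Rarg highest, for bHLH genes, with 24 of 36 and Hes7 and Hes1 highest, for forkhead genes, with 26 of 44 and Foxo3 and Foxo1 highest, and for Pax, Lhx, Pou and Irx genes, with 17 of 38 and Irx5 and Pou2f1 highest. T-box, Gata and Tead genes were occupied in 8 of 23 cases, led by Tead1 and Tbx6.

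The lists differed widely at several classes of developmental transcription factor genes. A peak was present at 3 Hox genes in tumor 39 and at 13 in tumor 41, or 7.69% and 33.3% of the class (20.5% ± 18.1, SD, n = 2). For Zic, Nfi and En genes the counts were 6 and 11 of 11, and En1, En2, Zic1 and Zic4 were among those with a peak in tumor 41 alone. Nfib had a peak in each tumor, but these did not overlap. The occupied members were Nfic, Zic5, Zic2, Nfix and Nfia. Sox genes had a peak in 10 and 14 of 19 cases, with Sox12 and Sox4 highest. Peaks were found in tumor 41 alone at Sox7, Sox10, Sox11 and Sox18, and in neither tumor at Sox1, Sox3, Sox5, Sox14 and Sox17. Over all 62 classes, tumor 41 had the higher count in 39 classes, tumor 39 in 2 classes and neither in 21. Over all genes, a TSS peak was present in tumor 41 alone at 891 and in tumor 39 alone at 188. Transcription factors of these classes made up 5.05% of the former and 2.13% of the latter, the latter being 4 genes, beside 1.43% of all protein-coding genes. The median number of CG dinucleotides within 500 bp of the start was 44 for the former, 18 for the latter and 41 over all genes. The list of tumor 41 was the longer one, and with 1 list per tumor the difference was not tested.

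Signalling classes carried Lsd1 about as often as the average gene or more often. Genes of the Notch and hedgehog pathways were occupied in 16 of 20 cases and strongly in 50%, led by Ptch1, the hedgehog receptor, with scores of 3100 in both tumors, and Rbpj, the nuclear effector of Notch, with 2639 and 3100. The unoccupied members were the ligands Shh, Ihh and Dhh and the factor Gli3, of which Ihh had a peak in tumor 41 alone. Ephrin, semaphorin and plexin genes were occupied in 43 of 51 cases, led by Plxnb1 and Epha7. Wnt and Frizzled genes were occupied in 19 of 29, with Frizzled receptor genes Fzd5 and Fzd2 highest, BMP and TGF-beta genes in 34 of 48, with Smad6 and Tgfb1 highest, and FGF genes in 15 of 28, with Fgf11 and Fgfr1op highest. The last class was defined by symbol and so takes in Fgfr1op and Fgfr1op2, which encode neither ligands nor receptors.

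The neuronal classes differed widely among themselves, from 3.51% to 76.5% of their genes occupied. Synaptotagmin and SNARE genes were occupied in 39 of 51 cases, led by Syt11 and Stx4a. Voltage-gated channel genes were occupied in 31 of 67 cases, led by Cacna1c and Kcnc4, and a peak was present at 46.3% of them in tumor 39 and 61.2% in tumor 41, beside 58.5% and 61.7% of all protein-coding genes. Occupancy was found at genes of glutamate, GABA and glycine receptors in 18 of 54, led by Gabbr1 and Grik4. Of 23 classical cadherin genes 6 were occupied, with Cdh24 and Cdh15 highest, and a peak was present at 6 in tumor 39 and 13 in tumor 41. Clustered protocadherin genes, from which neurons choose their surface identity, were occupied in 2 of 57 cases, Pcdhgc3 and Pcdhgc4. Strong occupancy was found at 0 genes of both cadherin classes.

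Immune, sensory and barrier genes carried little Lsd1. Olfactory receptor genes were occupied in 1 of 1135 cases, or 0.0881%, and each tumor's list had a peak at 2 of them. The one region was at Olfr543, with scores of 251 and 152, and there the tumor 39 peak lay within 1000 bp of the start and its tumor 41 partner did not. Of 331 vomeronasal receptor genes 1 was occupied, Vmn1r4, and it shared its region with Nt5c3. No defensin (of 64), prolactin family (of 25) or kallikrein gene (of 26) had a region, and 1 defensin gene, Defb42, had a peak in tumor 41 alone. Interleukin genes were occupied in 21 of 82 cases, led by Il4i1 and Il25, chemokine genes in 6 of 55, led by Ccr10 and Ccl27a, and natural killer lectin receptor genes in 1 of 26, Klrg2. Some of these shared a region with a neighbouring gene, as Il4i1, which encodes an enzyme and enters the class by its symbol, did with Atf5 and Nup62, and Ccr10 with Plekhh3 and Cntnap1. Major histocompatibility genes were occupied in 10 of 34 cases, led by H2-DMa, which shares its region with Brd2, and H2-Ke6, interferon and interferon receptor genes in 5 of 26, led by Ifnar1 and Ifnz, and Toll-like receptor genes in 1 of 12, Tlr5. Taste receptor genes were occupied in 1 of 38 cases, Tas1r1, and keratin-associated and cornified envelope genes in 4 of 93, led by Krtap11-1 and Krtap10-4. Keratin genes were occupied in 7 of 53 cases, led by Krt80, cytochrome P450 genes in 17 of 100, led by Cyp26b1 and Cyp51, and serpin genes in 3 of 61, Serpini1, Serpinh1 and Serpinb6a.

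**Figure D2:**
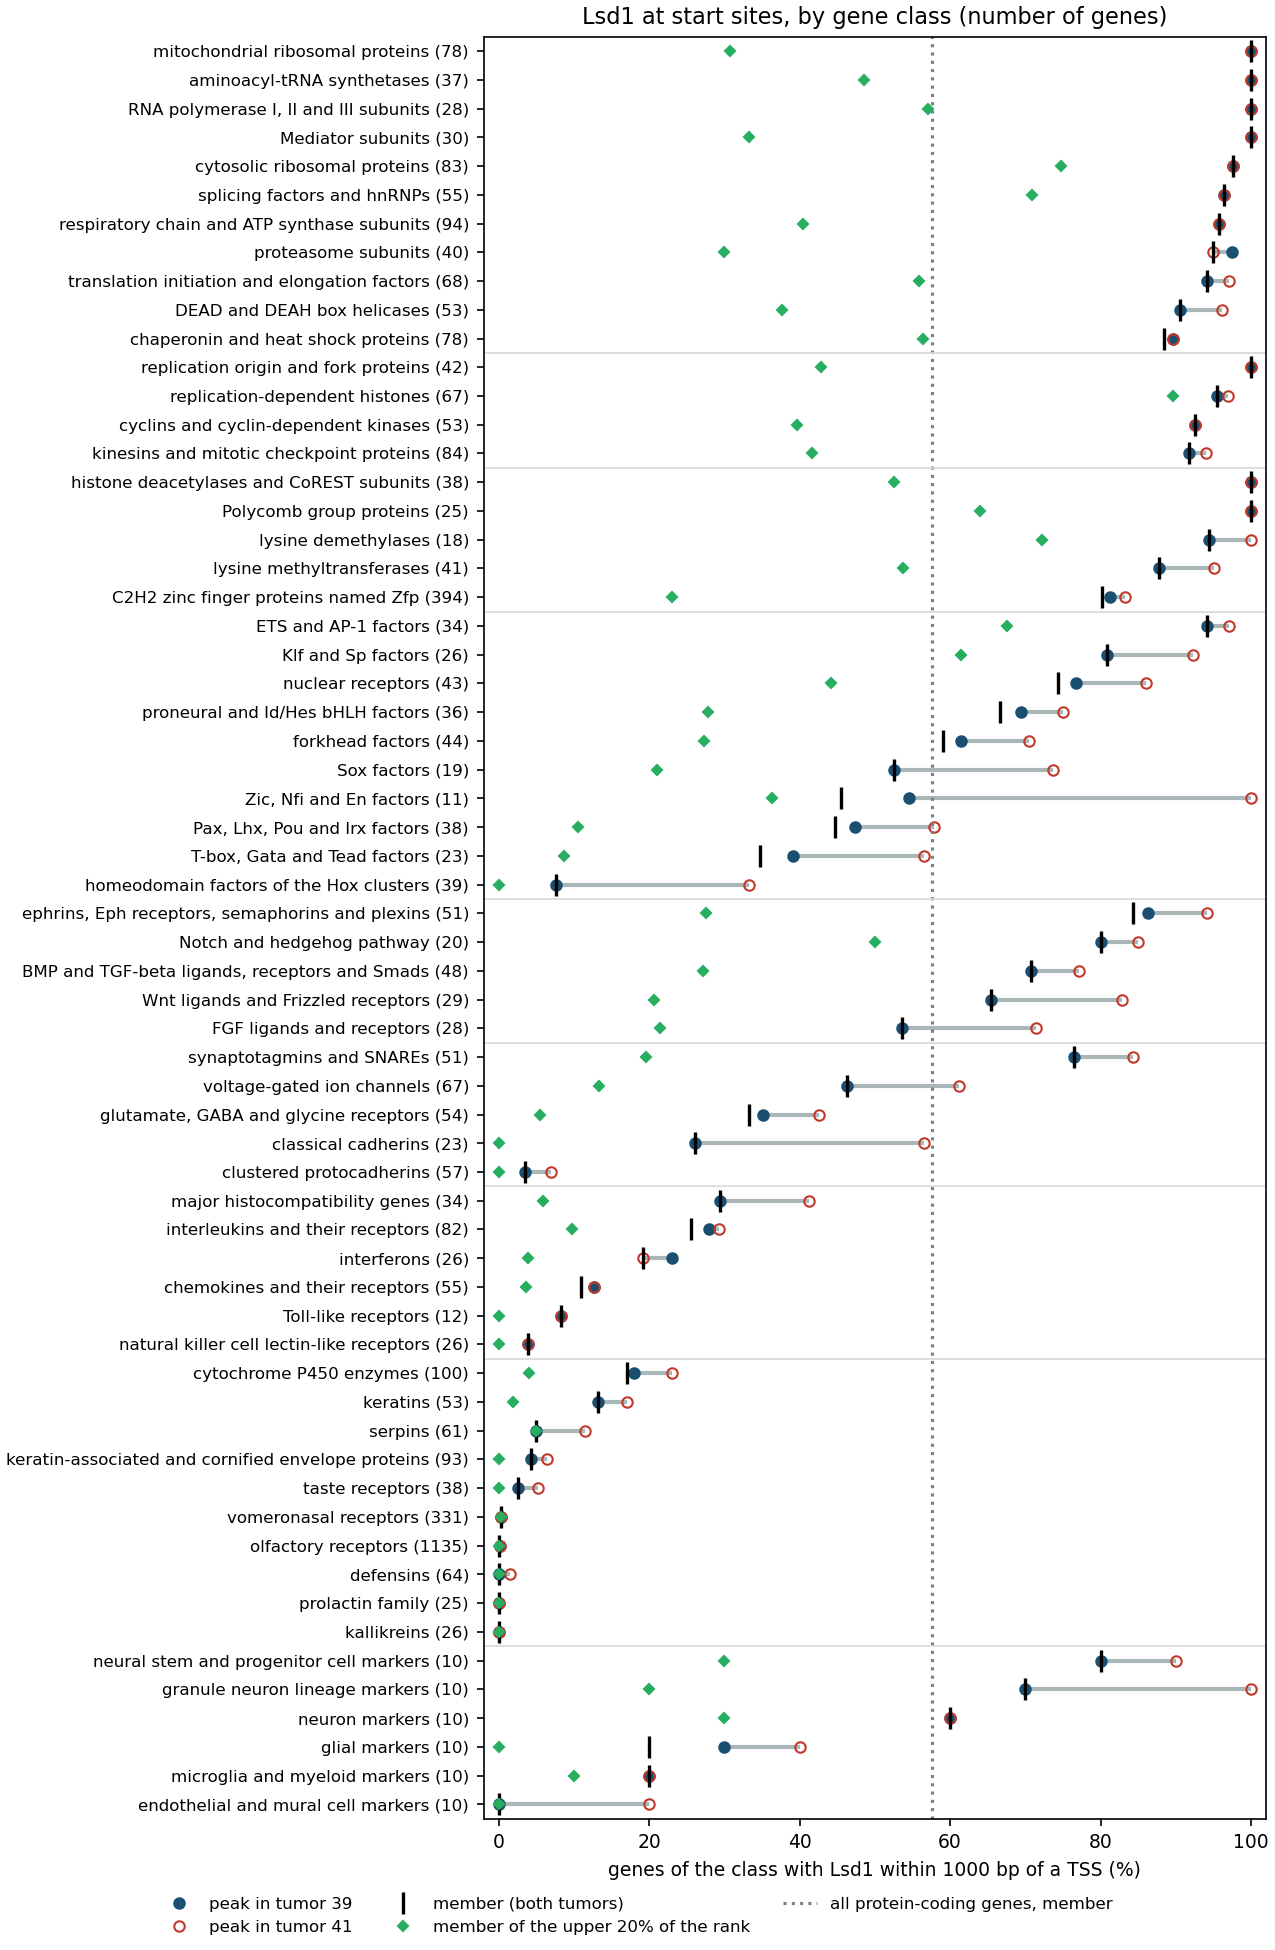
Share of genes (%) with Lsd1 within 1000 bp of a TSS in each of 62 gene classes, with the number of genes in parentheses. Filled and open circles give each tumor's own list, vertical bars give regions found in both tumors (members in the key), diamonds give regions of the upper 20% by rank, grey lines join the tumors, and the dotted line marks the 57.6% of all protein-coding genes. Classes of cell machinery lie near 100%, sensory receptors near 0, and Zic, Nfi and En factors have the widest distance between the tumors.

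Lsd1 was also read at marker genes of cell types, beside the 57.6% of all protein-coding genes that were occupied. Of 10 neural stem and progenitor markers 8 were occupied, among them Hes1 and Notch1, and Fabp7 and Msi1 were not. For granule neuron lineage markers the count was 7 of 10, led by Gli1 and Zic2, and the other members, Atoh1, Mycn and Zic1, had a peak in tumor 41 alone. Neuron markers were occupied in 6 of 10 cases, with Dcx, Gap43, Nefl and Stmn2 unoccupied, and glial markers in 2 of 10, Mbp and Aldh1l1. Of 10 microglia and myeloid markers Cd68 and Spi1 were occupied, the former through a region that also covers starts of Mpdu1 and Eif4a1, and Aif1, C1qa, Csf1r, Cx3cr1, Itgam, P2ry12, Ptprc and Tyrobp had no peak in either tumor. None of 10 endothelial and mural markers was occupied, and Cldn5 and Kdr had a peak in tumor 41. The median number of CG dinucleotides within 500 bp of the start was 57, 49 and 37 for the progenitor, granule neuron and neuron markers. It was 17.5, 12.5 and 19.5 for the glial, myeloid and endothelial markers, and 41 over all genes. With 10 genes each, these shares were not tested against that of all genes. Occupancy of a marker gene is not a measure of its expression, and the share of each cell type was not tested.

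Occupancy followed the CpG content of the start site. CG dinucleotides were counted within 500 bp of the annotated start of each gene, and the genes were split into deciles. The count was made at the outermost start alone, whereas a region at any TSS of a gene made it occupied. In the lowest decile, with 0 to 5 of them, 2.69% of genes were occupied, and in the highest, with 92 to 172, 92.0% were. The steepest step lay between the fourth decile, at 34.4%, and the sixth, at 81.9%. The single lists gave 3.01% and 3.19% in the lowest decile and 92.2% and 96.4% in the highest for tumors 39 and 41. Strong occupancy went from 0.958% to 53.1%. Classes followed this order in part. The medians of the general machinery classes ran from 55.0 to 72 CG dinucleotides, those of immune classes from 5.50 to 15, and that of olfactory receptors was 3, whereas Hox genes had a median of 52.0 and Wnt and Frizzled genes one of 81.0.

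**Figure D3:**
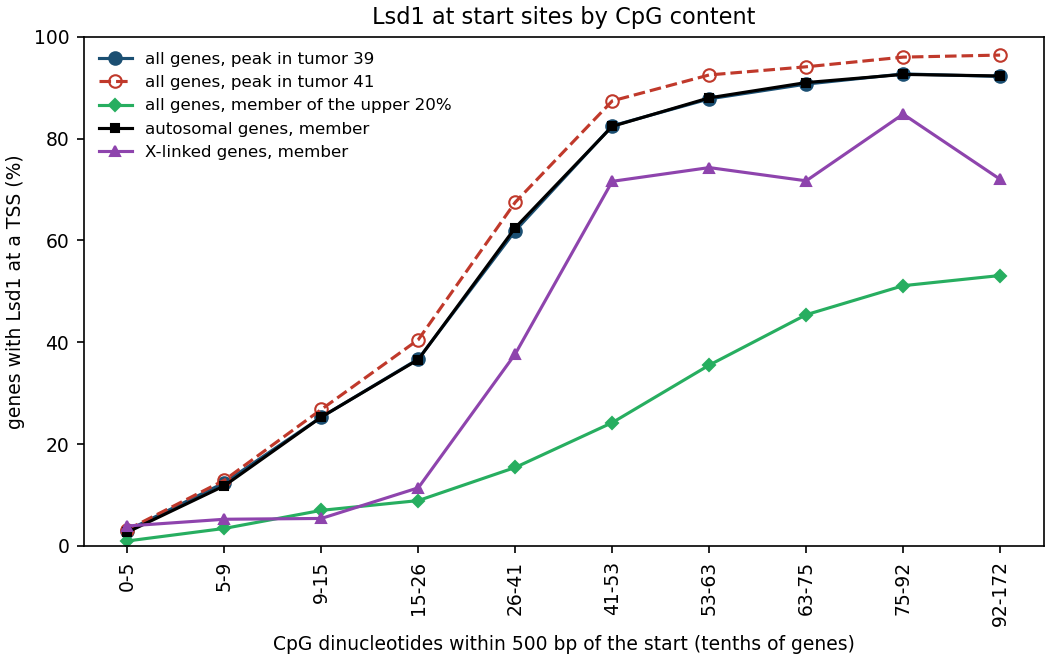
Share of protein-coding genes (%) with Lsd1 at a TSS for deciles of genes ordered by the number of CG dinucleotides within 500 bp of the start. Circles give the lists of tumor 39 (filled) and tumor 41 (open), diamonds strong occupancy, and squares and triangles regions (members in the key) at autosomal and X-linked genes. The share of autosomal genes goes from 2.69% to 92.3%, and the X-linked share is lower in every decile but the lowest.

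Exceptions to this order were found at both ends. Of the 2194 genes in the highest decile 176 were unoccupied. Of these, 97 had a peak in tumor 41 alone, 3 in tumor 39 alone and 75 in neither, and at 1, Gabbr2, the peaks of both tumors did not overlap. The genes with a peak in tumor 41 alone include the hindbrain and patterning factors En2, Barhl2, Irx1, Hoxa13 and Hoxd13, the progenitor genes Msi1 and Sox11, and Reln. Percentiles in tumor 41 were 27.65 at En2, 55.02 at Sox11 and 67.67 at Reln, and the highest of the 97 was 90.61, at Pik3r2. Gli3, Sall3, Sox3, Barx1, Bmp2, Gdnf and Dscam were among the 75 with no peak. In the lowest decile 59 genes were occupied, 50 of them by a region with no other protein-coding gene. The highest of these, chosen like the other genes of this paragraph with their values known, were Lipe, hormone-sensitive lipase, with a rank of 97.67 and 4 CG dinucleotides, and Lsm14a, a component of processing bodies, with a rank of 96.17 and 2. The regions of such genes may lie at other TSSs than the one counted. Whether the occupied sites themselves are poor in CG dinucleotides was not tested.

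Lsd1 was unevenly spread over the chromosomes. Autosomes held between 6.14 regions per Mb, on chromosome 3, and 17.8, on chromosome 11. The X chromosome held 2.19 per Mb and the Y chromosome a single region. The labels do not give the sex of the tumor-bearing hosts or of the mice from which the stem cells came, and the study used hosts of both sexes, so that its part in these shares was not tested. Of 948 X-linked genes 33.2% were occupied, against 59.3% of 20807 autosomal genes, and the share was 33.9% in tumor 39 and 36.9% in tumor 41, against 60.2% and 63.4% for autosomal genes. Among autosomes the occupied share ran from 49.1%, on chromosome 14, to 68.7%, on chromosomes 8 and 12. Strongly occupied genes made up 0.949% of X-linked genes, 9 in number, and 25.8% of autosomal ones. In each tumor's own upper 20% there were 16 X-linked genes in tumor 39 and 21 in tumor 41, or 1.69% and 2.22%, against 29.6% and 33.8% of autosomal genes.

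At matched CpG content the X-linked share stayed below the autosomal one in each decile but the lowest. In the sixth decile it was 71.6% of 116 genes against 82.4%, and in the highest 72% of 25 genes against 92.3%. The X-linked genes of highest rank were Usp9x, a deubiquitinase, with scores of 960 and 1812, Kdm6a, an H3K27 demethylase, with 1157 and 1176, Maged1 with 912 and 1410, and Ddx3x, an RNA helicase, with 1130 and 1080. At the Xist TSS a peak with a score of 348 was listed in tumor 39 and none in tumor 41, and the Y-linked genes Ddx3y, Eif2s3y, Kdm5d and Uty had peaks in tumor 41 alone. The tumors thus differed at sex chromosome genes while both had the low X-linked shares, and the part of these differences in the X-linked shares was not tested.

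**Figure D4:**
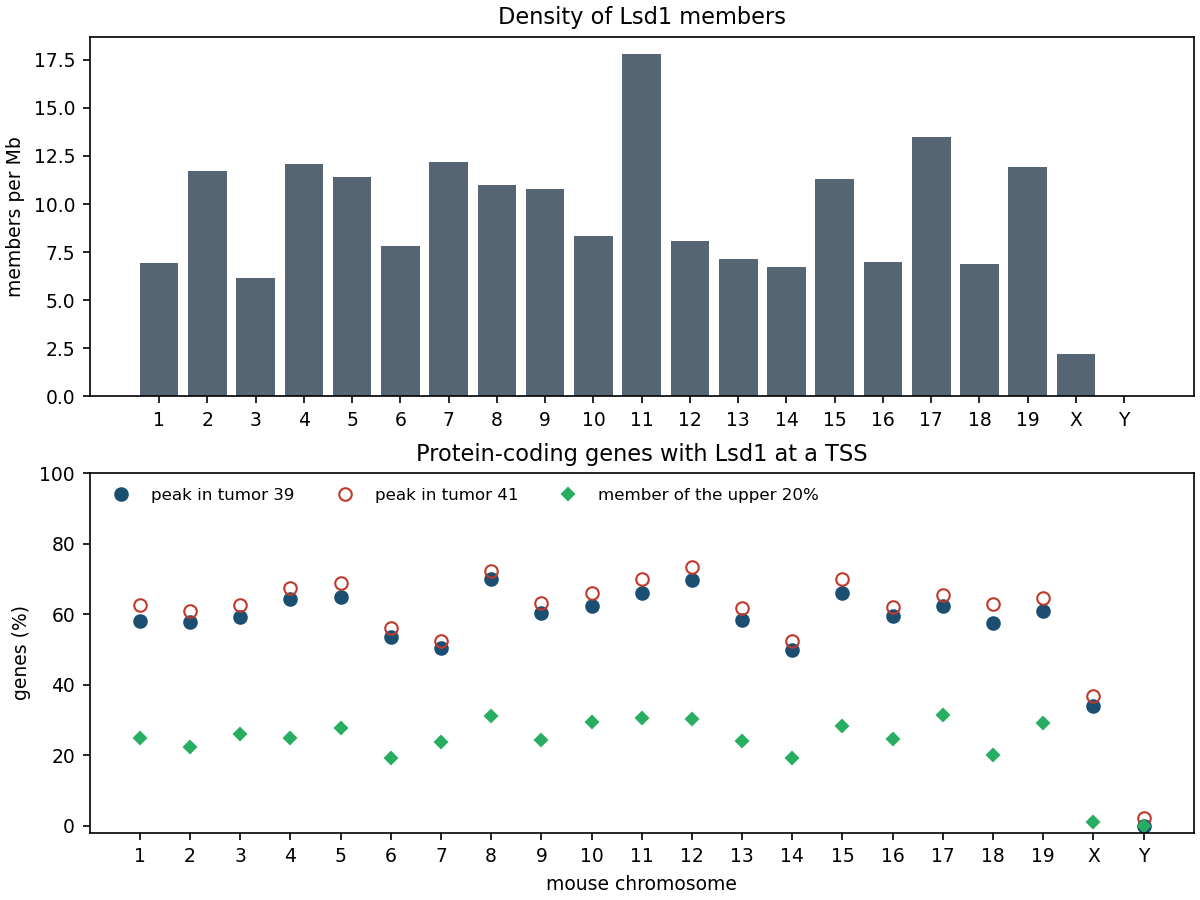
Top, Lsd1 regions per Mb of each mouse chromosome. Bottom, share of protein-coding genes (%) with a peak at a TSS in tumor 39 (filled circles) and tumor 41 (open circles) and with a region of the upper 20% by rank (diamonds). The X chromosome has 2.19 regions per Mb, below the 6.14 of the least dense autosome, and 0.949% of its genes are strongly occupied.

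Most regions were gathered in a small part of the genome. Of 2660 windows of 1 Mb with sequence for most of their length, 405, or 15.2%, held 20 or more regions and together 59.8% of all that fell in such windows, whereas 673 held none. The densest window, chr10:80000001-81000000, held 101 regions at 53 genes, of which 52 were occupied, among them Polr2e, Gpx4, Stk11, Dot1l and Tcf3. Windows at chr7:19000001-20000000 and chr8:70000001-71000000 held 87 each, chr2:32000001-33000000 held 85 and chr11:117000001-118000000 held 80. The last differed in kind, since 52 of its 80 regions were more than 1000 bp from a TSS and it holds 16 genes, Sept9 and Socs3 among them. Peak counts in the windows agreed between the lists, with a Spearman correlation of 0.97 over the 2660 windows. As descriptions over the same windows, which share base composition and gene content, the number of regions had a Spearman correlation of 0.75 with the number of genes, 0.83 with G+C content and -0.57 with the share of repeat-masked bases.

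**Figure D5:**
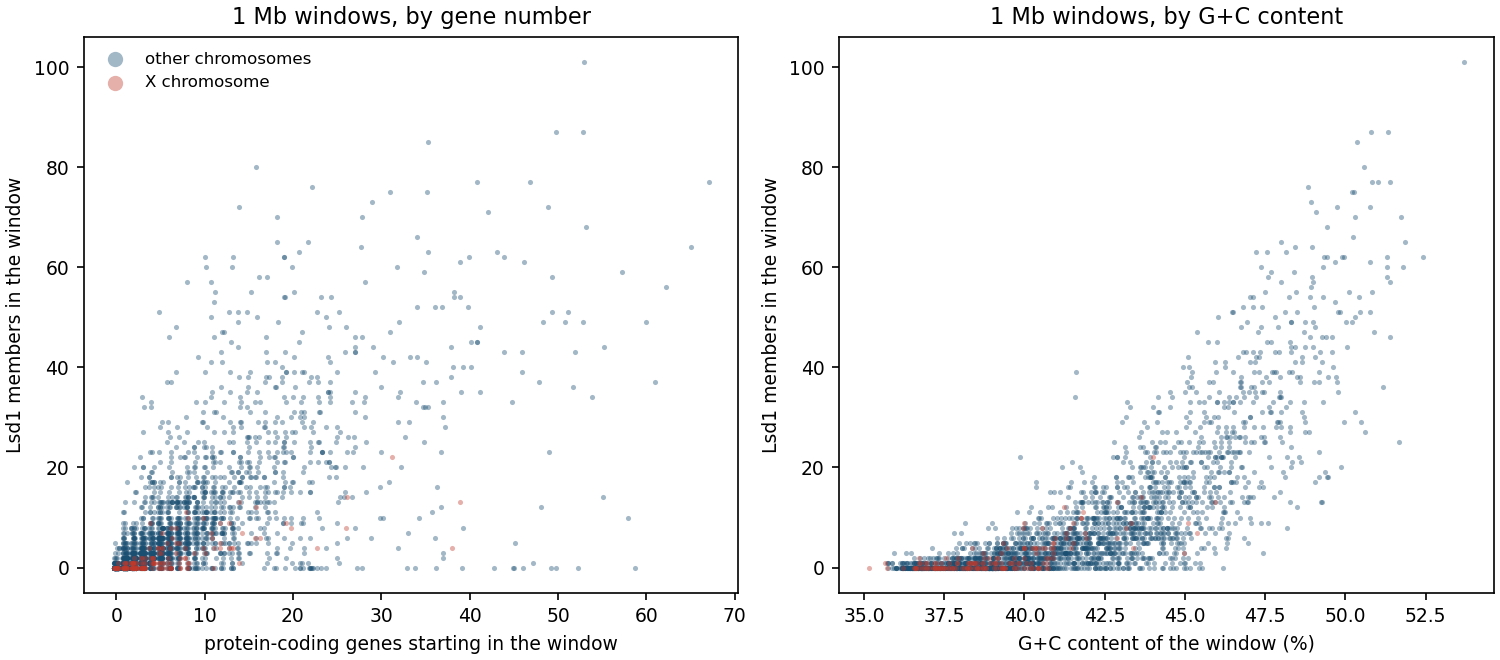
Lsd1 regions in each of 2660 windows of 1 Mb against the number of protein-coding genes that start there (left, points shifted slightly sideways to be visible) and against the G+C content in % (right). Windows of the X chromosome are shown in red. The densest window, on chromosome 10, holds 101 regions, and 27 windows with 20 or more genes hold none.

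A few windows stood apart from this relation. With less than 42% G+C, 6 windows still held 20 or more regions. The richest of them, chr13:21000001-22000000 with 39 regions and chr13:23000001-24000000 with 34, contain 18 and 31 histone genes. Another, chr13:67000001-68000000, contains 23 zinc finger genes named Zfp, and chr4:97000001-98000000 holds 22 regions at 3 genes, one of which is Nfia, with 16 of the regions away from a TSS. In the opposite sense, 27 windows with 20 or more genes held no region. The 5 with most genes lie in olfactory receptor clusters, and the first, chr7:103000001-104000000, holds 52 olfactory receptor genes among its 59. Such windows were free of peaks in both lists in these 5 cases.

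Of the 5 longest stretches between neighbouring regions of one chromosome 4 were on the X chromosome. The Y chromosome, with its single region, has no such stretch. The first, chrX:23693844-36597676, runs over 12.9 Mb and 55 genes, many of which belong to the amplified Btbd35f, Spin2 and Slx families of testis genes. These are near-identical copies, for which an absence of peaks is uncertain, and tumor 41 alone had 1 peak in this stretch. Others lay at chrX:123104353-131998197, chrX:60405085-68677758 and chrX:85777703-93631184. The fifth was chr8:96290089-104052231, 7.76 Mb with 2 genes, Cdh8 and Cdh11. Some of the next stretches on autosomes also hold cadherin and related adhesion genes, with Cdh20 and Cntnap5b at chr1:98096455-105662623, Cdh9, Cdh10 and Cdh12 at chr15:16116298-23035892 and Cntnap5a at chr1:111865583-118310423. Another, chr1:25229348-30871807, holds 4931408C20Rik and Gm597 and no such gene. By number of genes the largest stretch was chr2:85061436-90559797, with 236 genes of which 227 are olfactory receptors, and each list had 2 peaks in it.

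Away from start sites, 10066 regions were found, with a median width of 1614 bp and a median rank of 43.1, against 2331 bp and 74.4 at start sites. Only 353 of them belonged to the upper 20% by rank. They were given to the protein-coding gene that contained them or otherwise to the one with the closest TSS, which took in 4659 genes. Of these, 2644 had 1 such region and 88 had 10 or more, and all 88 were occupied at a TSS as well. The highest count, 57, was at Gm20388, a predicted read-through gene of 4430 kb that overlaps many others. It was followed by Arid1b with 45, a subunit of the BAF chromatin remodelling complex, Zmiz1 with 32, a transcriptional coactivator, Gse1 with 31, Casz1 with 23, a zinc finger factor, and Ksr1, Macrod1 and Sulf2 with 21 each. Sox9, a regulator of neural stem cells, had 20, all outside the gene and 18 of them in introns of other transcripts, and Nfatc2 and Rbfox3 had 19 each. Among classes, distal regions numbered 3.0 per gene for neural stem and progenitor markers, through the 20 of Sox9, and 2.64 for Zic, Nfi and En genes, of which Nfia had 16. They numbered 2.3 for neuron markers, where Rbfox3 had 19 of 23, and 2.15 for Notch and hedgehog genes, of which Gli2 had 18. They numbered 2.12 for Klf and Sp genes and 2.05 for Sox genes, where Sox9 had 20 of 39. Over all genes the value was 0.459. These counts take no account of gene length or of the space between genes.

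Gse1, which encodes a chromatin-associated coiled-coil protein, was covered with Lsd1 over much of its length. The gene spans chr8:120228456-120581390. In tumor 39 it held 38 peaks that covered 53.4% of it, and in tumor 41 it held 63 that covered 84.5%. A region at one of its internal starts, chr8:120530807-120542055, had scores of 3100 in both tumors. Of the tumor 41 peaks 18 had no partner, and 2 of these, chr8:120302917-120312623 and chr8:120274908-120281981, scored 3100. They were among the 5 highest peaks of tumor 41 without a partner.

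The words of known DNA-binding factors differed between sites with and without Lsd1. For promoters, 500 bp around the annotated start of each gene was searched on both strands for short words, although a gene may be occupied at another of its TSSs. The ETS word CCGGAAG was present at 23.5% of strongly occupied, 21.0% of other occupied and 4.20% of unoccupied promoters, and at 14.5% of all promoters. The YY1 word AAGATGGCG was present at 5.92%, 3.69% and 0.377%, and 2.83% of all. For the Klf and Sp word GGGGCGGGG these shares were 28.3%, 24.7% and 5.97%, and 17.6% of all, and for the NRF1 word GCGCATGCG 5.03%, 3.26% and 1.15%, and 2.80% of all. The TATA word TATAAA had the opposite order, with 8.04%, 9.38% and 26.8%, and 16.4% of all. The NF-Y word GCCAAT was at 26.0% of strongly occupied, 20.1% of other occupied and 19.3% of unoccupied promoters, and 21.2% of all. The promoter groups had medians of 41, 34 and 6 CG dinucleotides in these 500 bp, so that words rich in G and C meet unequal base composition, and its part was not tested.

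Distal regions were searched for the same words. In 500 bp at the centre of 10065 of them, the bHLH word CAGCTG was present in 35.6%, against 23.7% and 23.3% of windows moved by 10000 bp to either side that met neither a region nor a TSS. The NFI word CTTGGCA was present in 16.9% against 8.94% and 8.91%, and the E-box CACGTG in 11.1% against 6.75% and 7.27%. At promoters the E-box was at 14.6% of strongly occupied, 12.4% of other occupied and 6.37% of unoccupied ones, and 10.4% of all. In the same order the bHLH word was at 22.5%, 26.7% and 28.5% of promoters, and 26.4% of all. The NFI word was at 6.12%, 6.76% and 10.0% of promoters, and 7.98% of all. The NFI word and the NF-Y word share the letters GCCAA on one strand, and the NF-Y word was at 15.7% of distal regions against 13.4% on both sides. The AP-1 word TGANTCA was at 15.2% against 13.3% and 14.0%, and the word AATCACNGC, the core bound by GFI1, at 1.20% against 1.16% and 1.24%. The other words searched were CRE (TGACGTCA), CTCF (CTAGNGGGC), GLI (TGGGTGGTC), POU (ATTTGCAT), REST (TCAGCACCA), RFX (GTTGCCATG), RUNX (TGTGGTTT), SOX (AACAATG) and TEAD (ACATTCCA). CTCF was at 1.85% of distal regions against 0.682% and 1.06% of the moved windows, CRE at 0.974% against 0.281% and 0.438%, REST at 1.40% against 0.869% and 0.797%, and RFX at 0.854% against 0.588% and 0.651%. SOX was at 5.77% against 7.03% and 7.12%. Closer to the moved windows were POU at 2.14% against 2.43% and 2.31%, RUNX at 3.59% against 3.69% and 3.68%, TEAD at 2.58% against 2.46% and 2.24%, and GLI at 0.596% against 0.602% and 0.505%. Distal regions had a median G+C of 51.8%, against 47.0% and 46.8% in the moved windows, and 14.1% of their bases were repeat-masked, against 27.8% and 27.9%. To show such sites, the central 200 bases are given below for the highest-ranked intronic region with the word near its centre, on the plus strand of GRCm38.p6 and with the word in capitals. The first is CTTGGCA, here on the opposite strand, in Vgll4 (chr6:114887700-114887899), from a region with scores of 2959 and 2807. These bases lie in the tumor 39 peak, chr6:114879869-114895731, but outside its tumor 41 partner, chr6:114890078-114896021. The second is CAGCTG in Nfatc2 (chr2:168527119-168527318), from a region with scores of 2623 and 3100.
Vgll4: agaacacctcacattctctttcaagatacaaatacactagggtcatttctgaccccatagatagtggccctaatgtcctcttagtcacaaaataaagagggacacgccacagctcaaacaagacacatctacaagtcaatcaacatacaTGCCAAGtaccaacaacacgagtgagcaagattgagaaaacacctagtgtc
Nfatc2: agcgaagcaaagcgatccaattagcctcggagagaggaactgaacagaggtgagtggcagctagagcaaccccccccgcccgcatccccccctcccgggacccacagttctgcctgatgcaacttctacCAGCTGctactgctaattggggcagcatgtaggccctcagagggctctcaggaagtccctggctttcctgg

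Regions did not always stand at the same place in both lists. The median distance between the percentiles was 7.99 points, and 3501 regions, or 14.2%, differed by more than 25. The 5 that were most above in tumor 41 lay at Hnrnpa2b1, within Cdk19 and Sgta, and closest to Klf11 and Spag9. In tumor 39 they had scores between 50.55 and 56.5, and in tumor 41 between 1953 and 3178. In each of the 5 the tumor 41 peak also overlapped a stronger tumor 39 peak, with scores between 1561 and 2901, so that 1 peak of tumor 41 matched several of tumor 39. The 5 most above in tumor 39 were at Cfap298, with scores of 946 and 78.8, at a start within Rfx4 with 844 and 83.2, at Fancc with 535 and 65.5, and in intergenic stretches closest to Tpte and Etnk1, and their tumor 41 peaks were not shared.

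With overlapping peaks of both lists merged into 23054 sites, 2465 sites, or 10.7%, differed by more than 25 points, 1565 of them higher in tumor 41 and 900 higher in tumor 39. Of the former 52.3% were at a TSS and of the latter 21.2%, beside 61.0% of all merged sites. The sites most above in tumor 41 were at the starts of Fam19a5, with scores of 53.8 and 773, Elavl2, with 53.0 and 684, Xkr4, with 64.4 and 955, St8sia2, with 62.1 and 862, and Epas1, with 53.0 and 536. The merging was chosen after these shared peaks had been seen.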

How the data were processed

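Lsd1 ChIP-seq peaks of 2 MG tumors, labelled as biological replicates, were analysed. Chromatin was prepared at Active Motif. The authors aligned reads to mm10 with BWA (version 0.6.2 per the submitters' processing notes), removed duplicates with Picard and called peaks in each sample with MACS at default parameters against input. Each deposited list holds the coordinates of its peaks with a score for each. The definition of this score, the MACS version and the peak-calling threshold are not given in the sources used here. Read counts are not part of the lists, and the precision of a single peak is unknown.

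From these lists, overlaps of 1 bp, percentiles, ranks and distances to 132629 separate TSSs of GENCODE M21 (GRCm38, the build of mm10) were computed. Gene classes were defined by symbol. CG dinucleotides and 20 words were counted in the GRCm38.p6 genome, and promoter sequences were taken from the RefSeq table, in which 16522 of 21911 protein-coding symbols matched an entry. With 1 group of 2 tumors no test between groups was possible, and spread is the SD over tumors. The members and lists were chosen with earlier results of these data known. The genes named were the 10 highest regions with a protein-coding TSS, the 5 highest away from TSSs, the 5 lowest, the 10 genes with most distal regions, in each class the 2 occupied genes of highest rank and, in classes of fewer than 20 genes or with fewer than 5 unoccupied, the unoccupied ones, the 5 largest differences between tumors in each direction, the 5 densest windows and the 5 longest stretches between neighbouring regions. Any other gene was named with its values known. The overlap, distance and occupancy steps were tested on simulated data. Gfi1 lists and the input were not used here. Some genes that the rule would name are not reported here. Python 3.11.15 with numpy 2.4.6, pandas 2.3.3 and pysam 0.24.0, and samtools 1.23.1 were used.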

Additional observations from a re-analysis of the deposited data

How the results depend on the processing

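Of 59 values of the 7 main results under other settings, 37 stayed within the limits used, which were the spread between the tumors for shares and a factor of 1.5 for the number of regions, and 22 moved beyond them. The spread was 0.212 points for the TSS share and 0 for the olfactory receptor and cytosolic ribosomal protein shares, so that small changes there count as moved. Each number of regions stayed within its wide factor, and the tally therefore depends on the limits. The number of regions, 24627, was 18719 with scores of 100 or more in both lists, and the lists of single tumors held 30367 and 33213 peaks. The cause was not tested. Leaving out 1 tumor gave a TSS share of 50.8% to 51.1% of peaks, occupied shares of 58.5% to 61.7% of protein-coding genes, 0.176% of olfactory receptor genes and 33.9% to 36.9% of X-linked genes, and a strongly occupied share of 28.1% to 32.2%. The TSS share was 60.8% when 50% of the peak length had to be covered, 57.3% with tumor 41 peaks as regions, 56.9% and 65.6% with TSS windows of 500 bp and 2500 bp, 54.2% with protein-coding TSSs alone, 68.3% with scores of 100 or more in both lists, and 61.0% with merged sites, which were added after seeing the data. At scores of 100 or more, 54.5% of genes were occupied, 19.3% strongly, and 29.3% of X-linked genes were occupied. Strong occupancy was 13.1% and 41.8% at the upper 10% and 40% of the rank. The share of olfactory receptor genes was 0% with tumor 41 peaks as regions and with a TSS window of 500 bp, so that the 1 occupied gene rests on the definition. No paired analysis was possible because the result comes from no test and a single group was analysed.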

Other observations

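Start sites of non-coding genes carried Lsd1 less often than those of protein-coding genes. Long intergenic non-coding RNA (lincRNA) genes were occupied in 767 of 5854 cases, or 13.1%, antisense genes in 32.4% of 2959, and processed pseudogenes in 2.15% of 9940. Of 190 long non-coding RNA genes annotated as sharing a bidirectional promoter, 85.8% were occupied. Much of this occupancy lay near protein-coding starts. With a distance of more than 5000 bp to any protein-coding TSS required, the occupied share was 7.56% for lincRNA, 10.7% for antisense and 1.17% for processed pseudogenes. Among lincRNA genes whose region touched no protein-coding start, those of highest rank were 2410080I02Rik, Gm26887 and Neat1, the scaffold of nuclear paraspeckles, each with scores of 3100 in both tumors. At Neat1 the tumor 39 peak was 15591 bp wide. None of the 218 immunoglobulin V genes and none of the 144 T cell receptor V genes was occupied.

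The highest-scoring peaks without a partner differed between the lists. In tumor 39 the highest scored 696, between genes and closest to Ets1 at chr9:32589747-32594983. In tumor 41 the highest scored 3103, at chr1:171067616-171075115, where Fcgr3 has the closest protein-coding start, and another with a score of 2810 lay on an annotated ribosomal RNA gene at chr17:39842844-39849034. Ribosomal RNA genes are repeated in the genome, and peaks there are uncertain.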
